A study of Mus musculus with 6 samples.

Results

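The gene expression of B16F10 cells kept for 48 h with 2.5 µM of a compound was set against that of the same cells kept in medium without it. B16F10 is an established mouse melanoma line that makes pigment. The labels call the compound di-sq or SQ-diEG, and its structure is not described here. The series has 6 arrays in 3 groups of 2: control (medium), 2.5 µM and 40 µM. The 4 arrays of the control and 2.5 µM groups are described here, with the 40 µM values given beside them. No genotype is named for any group, and no solvent is named for the control. No other agent is named, except in the description of 2.5 µM replicate 2, given below. Nothing in the labels says whether replicates were separate cultures, so p-values here reflect only how these arrays scatter, which may be technical.

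A gene was described when it met both parts of a rule. Its higher group mean had to exceed 9.94, here called background, which is the mean over the 6 arrays of each array's 95th percentile among negative controls. Its groups also had to be apart, meaning that both arrays of 1 group lay above both arrays of the other. Of 19505 genes, 4269 were above background and 2508 of these (58.7%) were apart, 1480 (34.7%) higher and 1028 (24.1%) lower at 2.5 µM. The other 1761 were above background without being apart. With both group means required above background, 1273 higher and 941 lower genes were left. The remaining genes apart passed through 1 group alone, so their level in the other group and their fold are uncertain. The gap of a gene is the distance between the nearest arrays of the 2 groups, in log2 units, and it has a minus sign where 2.5 µM was lower. Values are the deposited log2 expression values throughout. Since they come from whole cultures, less RNA per cell and fewer cells making it cannot be told apart.

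The titles, source names and treatment labels agree on the groups. The description of 2.5 µM replicate 1 names medium instead, and that of replicate 2 names a treatment written as APC 50%. The titles were followed. One array of each dose stood apart from the rest. On 2.5 µM replicate 1 and 40 µM replicate 1 the mean hybridisation control signal was 10.4 and 10.3, while the other 4 arrays had 10.8 to 11.2, and the poly-A controls 5.65 and 5.63, against 6.35 to 7.42. The interquartile range of all genes was 5.20 and 5.43 on these arrays and 4.90 to 4.94 on the others. Because of this, most genes are given array by array below, and most list medians, where given, separately on each 2.5 µM array. A fit without the low arrays is given with the test results.

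Relative to control, both 2.5 µM arrays had lower values for most of the replication histones above background (10 of 17) and for the single redox genes Srxn1, Gclc and Gclm, whereas the redox gene Txnrd1 was higher and the glutathione list as a whole had opposite signs on the 2 arrays. They had higher values for most of the hypoxia targets above background (9 of 14) and for single genes such as Itgb7, Got1 and Slc24a5. Among all genes above background 34.7% were apart and higher and 24.1% apart and lower. The hypoxia count includes Bnip3 and Bnip3l, which passed the background through 2.5 µM alone. Over all 21 measured hypoxia targets the median was 0.11 on replicate 1 and 0.30 on replicate 2. Nearly all differences were under 2-fold, and none of them passed the test. All lists used here were chosen with earlier results of these data known, so their counts describe these arrays and support nothing.

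No gene passed over all genes tested (limma, smallest adjusted p = 0.479), so 0 of 19505 (0%) were called. At an unadjusted p under 0.05 limma had 827 genes higher and 1050 lower, but only 271 of these lay above background. Without both low arrays, a setting added after seeing the data, 3991 genes passed, but the spread in that fit comes from the 2 control arrays and no others. The genes described below are therefore genes whose arrays did not overlap, not genes shown to differ. Of the genes above background 58.7% were apart, 34.7% higher and 24.1% lower, so being apart was the common state. The 2 control arrays lay closer together than the 2.5 µM arrays, with a median SD of 0.05 against 0.15 for genes above background. Outside both controls were 3877 of the 4269 genes on 2.5 µM replicate 1 and 3773 on replicate 2. Being apart thus needed little more than the same direction on both 2.5 µM arrays. All list counts below are to be read against 34.7% and 24.1%. Requiring a gap of at least 0.25 left 456 higher genes, or 10.7%, and 296 lower genes, or 6.93%. Gaps of at least 0.5 were found for 95 higher and 54 lower genes. At least 2-fold between the group means were 14 higher and 7 lower genes.

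The median difference from control among the 1480 higher genes was 0.38 on 2.5 µM replicate 1 and 0.26 on replicate 2. Among the 1028 lower genes it was -0.27 and -0.26. The split depended on the scaling: after quantile normalization of the genes 1126 were apart and higher and 1320 apart and lower, and after centring each array on its median the numbers were 1564 and 935. Being apart is easier with 1 array in a group: without 2.5 µM replicate 1 the count of lower genes was 1716, and without replicate 2 the counts were 2379 higher and 1591 lower. The plot of both 2.5 µM arrays against control shows this cloud, which is wider along replicate 1. Close to the edge of the rule, Dpf2 had a higher mean of 9.94 and was inside, while Gm15446 lay just below background. Atf6b had the narrowest gap and Fzd6 the narrowest overlap among genes above background.

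**Figure D1:**
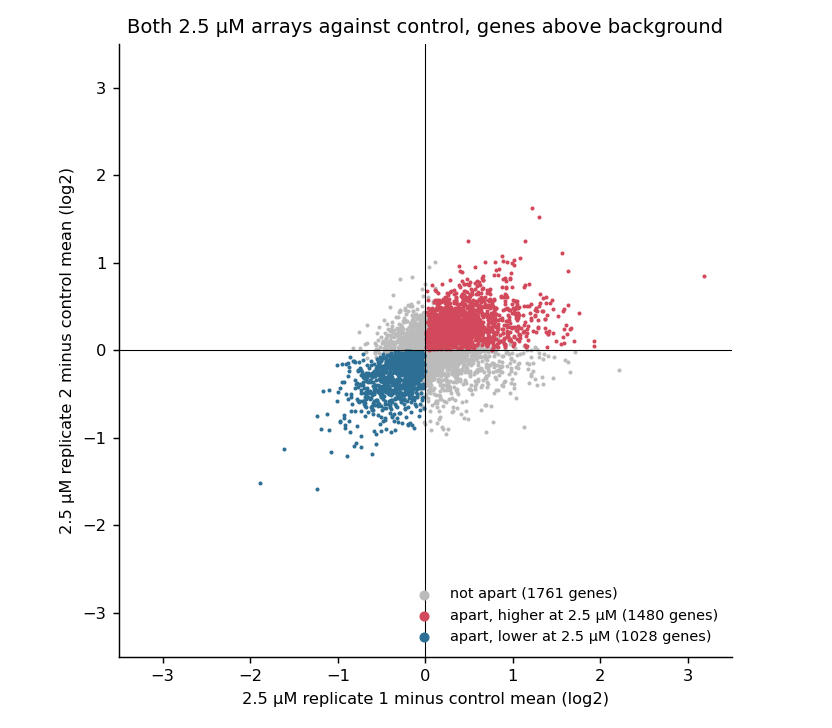
Difference from the control mean on 2.5 µM replicate 1 (horizontal axis) and on replicate 2 (vertical axis), both in log2 units, for the 4269 genes above background. Red points are the 1480 genes apart and higher, blue points the 1028 genes apart and lower, and grey points the 1761 genes that were not apart, many of which lie far to the right on replicate 1 and near or below 0 on replicate 2.

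The genes with the widest gaps had no single role. Itgb7, the integrin beta 7 subunit, had the widest gap among higher genes. It lay at 8.83 and 8.66 in control, 10.04 and 10.27 at 2.5 µM and 9.76 and 9.39 at 40 µM. Its difference of 1.41 (SE 0.22), or 2.65-fold, did not pass (limma, adjusted p = 0.479). Control lay below background here and both 2.5 µM arrays above it.

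Fryl, a relative of the furry scaffold proteins, was at 9.18 and 9.40 in control and 10.50 and 10.91 at 2.5 µM, 2.67-fold higher. Ypel5, a yippee family protein, was at 9.34 and 9.36 in control and 10.49 and 10.60 at 2.5 µM. In control Fryl and Ypel5 lay below background, so their folds are uncertain. Both genes were also above both controls at 40 µM, Fryl at 10.85 and 10.52 and Ypel5 at 11.58 and 9.79. At 40 µM they did not exceed the 2.5 µM values on both arrays. Cenpv, a centromere protein, was at 9.91 and 10.02 in control and 11.53 and 11.07 at 2.5 µM. Utp6, part of the complex that processes the small ribosomal subunit's RNA, was at 10.56 and 10.66 in control and 11.69 and 11.67 at 2.5 µM. For these genes the 2 arrays of each group lay closer to each other than to the other group.

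Got1, the cytosolic aspartate aminotransferase of the malate-aspartate shuttle, was at 13.14 and 13.22 in control, 14.17 and 14.18 at 2.5 µM and 14.35 and 13.63 at 40 µM (1.99-fold; limma, adjusted p = 0.479). Slc6a8, the creatine transporter, was at 12.34 and 12.37 in control and 13.32 and 13.18 at 2.5 µM, with 40 µM at 12.60 and 12.39. Akap7, an anchor for protein kinase A, was at 11.97 and 12.01 in control and 12.90 and 12.82 at 2.5 µM, with 40 µM at 12.46 and 12.36. Slc6a8 thus lay higher on both arrays of the lower dose than on either array of the higher dose, and so did Akap7.

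Lhfpl2, a tetraspan membrane protein, was at 10.50 and 10.52 in control and 11.52 and 11.48 at 2.5 µM. Lsm8, a subunit of the ring that binds the U6 spliceosomal RNA, was at 11.09 and 10.97 in control and higher by 0.93 (SE 0.23) at 2.5 µM. Eri1, an exonuclease that trims the ends of histone mRNA, was at 9.87 and 9.72 in control and 10.69 and 10.82 at 2.5 µM. The replicates of these genes lay close together. Btbd10 was at 9.02 and 9.14 in control and 10.09 and 10.11 at 2.5 µM. Cops9, a subunit of the COP9 signalosome, differed from these because its 2 arrays were far apart. It was at 8.15 and 8.11 in control and 11.32 and 8.98 at 2.5 µM, so its 4.05-fold mean difference has an SE of 1.26 on the log2 scale. Eri1, Btbd10 and Cops9 lay below background in control, so the size of their differences is uncertain.

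Among lower genes, 1700088E04Rik, which carries only a provisional name, had the widest gap. It lay at 11.80 and 11.92 in control, 9.97 and 10.34 at 2.5 µM and 10.40 and 11.16 at 40 µM, a difference of -1.70 (SE 0.29; limma, adjusted p = 0.479). Control was 3.26-fold higher. Maf1, a repressor of RNA polymerase III, was at 11.56 and 11.58 in control, 9.95 and 10.44 at 2.5 µM and 9.74 and 10.77 at 40 µM. Both genes lay below control on all 4 treated arrays.

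Prmt3, an arginine methyltransferase that acts on a ribosomal protein, was at 11.30 and 11.30 in control and 10.22 and 10.14 at 2.5 µM (-1.12, SE 0.21; limma, adjusted p = 0.479). Tbc1d13, of a family of Rab GTPase activators, was at 10.17 and 9.91 in control and 8.80 and 8.46 at 2.5 µM. Mvb12b, an ESCRT-I subunit that sorts membrane proteins, was at 10.76 and 10.61 in control and 9.59 and 9.77 at 2.5 µM. None of these overlapped control. Sdc1, the cell surface proteoglycan syndecan 1, was at 10.26 and 10.28 in control and 9.30 and 9.45 at 2.5 µM. At 2.5 µM the last 3 lay below background on both arrays, so their levels there are uncertain.

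Zdhhc5, a palmitoyltransferase of the plasma membrane, was at 10.89 and 11.07 in control and 10.12 and 10.04 at 2.5 µM, with 40 µM at 10.36 and 10.92. Phc2, a Polycomb protein, was at 10.77 and 10.66 in control and 9.92 and 9.66 at 2.5 µM. Sh3d19 was at 11.76 and 11.79 in control and 10.58 and 10.88 at 2.5 µM, and Asb8 had a difference of -1.05 (SE 0.25). All of these were lower on both arrays. Dus4l, an enzyme that modifies tRNA, was at 10.21 and 10.13 in control and 9.30 and 9.36 at 2.5 µM. Tbl2 was at 10.45 and 10.39 in control and 9.63 and 9.55 at 2.5 µM. For Zdhhc5, Dus4l and Tbl2, 40 µM replicate 2 lay close to control while both 2.5 µM arrays were below it. Phc2, Dus4l and Tbl2 lay below background on both 2.5 µM arrays, so their levels there are uncertain.

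**Figure D2:**
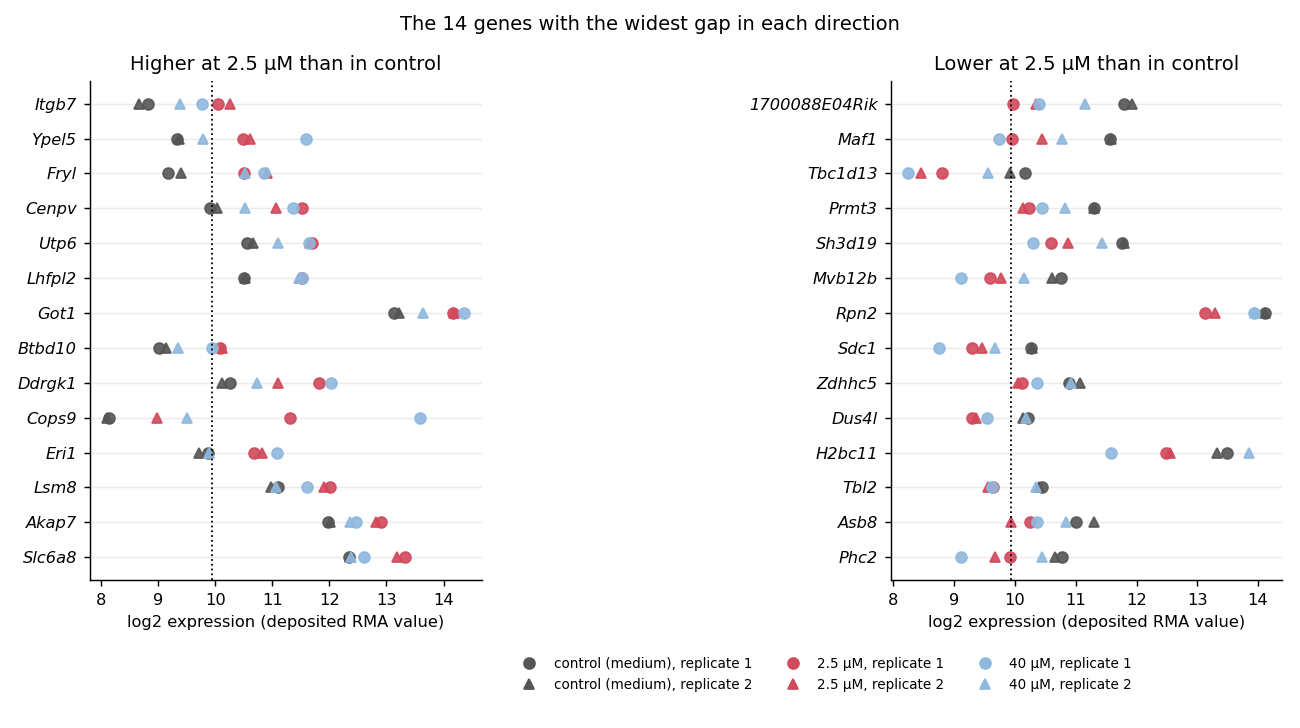
Deposited log2 expression (horizontal axis) on each of the 6 arrays for the 14 higher genes (left) and the 14 lower genes (right) with the widest gaps between 2.5 µM and control, from Itgb7 and 1700088E04Rik at the top. Circles are replicate 1 and triangles replicate 2, grey for control, red for 2.5 µM and blue for 40 µM, and the dotted line is the background of 9.94. By the choice of genes, no red point overlaps the grey points.

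Cells buffer reactive molecules with glutathione, made by the 2 subunits of glutamate-cysteine ligase from cystine that a transporter brings in. NRF2 is the transcription factor known for raising these genes together under oxidative or electrophilic stress, through the antioxidant response element in their promoters, and BACH1 is known to hold several of them down. At 2.5 µM several of these genes lay below control on both arrays. Of all genes above background 24.1% were apart and lower and 34.7% apart and higher, and the counts that follow are to be read against these shares. Of 8 members above background in the list of NRF2 regulators and detoxification, 4 were apart and lower and 0 higher. Of 11 in the glutathione and cystine list, 4 were lower and 1 higher. On replicates 1 and 2 the list medians were -0.09 and -0.44 for the former and 0.16 and -0.31 for the latter, so the glutathione list as a whole had opposite signs on the 2 arrays. All genes above background had medians of 0.08 and 0.03. The thioredoxin and peroxiredoxin list had 1 of 7 lower and 2 higher, with medians of 0.28 and -0.22.

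Srxn1, which repairs oxidised peroxiredoxins, lay at 10.21 and 10.43 in control, 9.63 and 9.57 at 2.5 µM and 11.85 and 11.78 at 40 µM. The 3 groups were apart from each other, with the lower dose below control and the higher dose above it. The difference at 2.5 µM was -0.72 (SE 0.19; limma, adjusted p = 0.479). Between 40 µM and 2.5 µM it was 2.21, with the smallest adjusted p of that comparison but not past the threshold (limma, adjusted p = 0.132). At 2.5 µM both Srxn1 values lay below background.

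The promoter of Gclm, the modifier subunit of glutamate-cysteine ligase, is shown because it holds the core letters of the antioxidant response element, TGACNNNGC. RefSeq (GRCm38.p6) places these 250 bases before the start of Gclm at chr3:122245307-122245556, plus strand, and the capitals mark the match, which reads on the opposite strand and has its first base at -134 from the start.
Gclm: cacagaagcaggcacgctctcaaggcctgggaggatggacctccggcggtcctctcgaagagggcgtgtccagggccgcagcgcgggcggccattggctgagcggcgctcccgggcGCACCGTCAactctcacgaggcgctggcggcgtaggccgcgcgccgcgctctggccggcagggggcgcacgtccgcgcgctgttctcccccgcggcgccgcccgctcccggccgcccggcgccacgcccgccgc
Of 32851 promoter windows of this length searched on both strands, 3338 (10.2%) hold these letters. Of 16 listed glutathione genes with a window, 4 hold them in any of their windows, which counts genes and not windows. The windows of Mgst1 and Txnrd1, which were higher at 2.5 µM, hold them too, while 0 of the 3 lower genes of the NRF2 list with a window do. A match describes the letters only, and these letters did not go with one direction.

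Gclm itself lay at 13.21 and 13.27 in control, 12.79 and 12.66 at 2.5 µM and 14.43 and 13.79 at 40 µM, below control at the lower dose and above it at the higher. Gclc, the catalytic subunit, was at 12.18 and 12.21 in control, 11.39 and 11.76 at 2.5 µM and 12.27 and 12.15 at 40 µM. It was 1.53-fold higher in control than at 2.5 µM (difference -0.61, SE 0.20; limma, adjusted p = 0.479). At 40 µM Gclc overlapped control. Slc7a11, the cystine transporter, was at 15.07 and 15.13 in control, 14.97 and 14.95 at 2.5 µM and 15.33 and 15.59 at 40 µM, a small difference of -0.14 at 2.5 µM.

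Hmox1, heme oxygenase, was at 17.33 and 17.28 in control, 16.64 and 16.82 at 2.5 µM and 17.02 and 18.07 at 40 µM. Its 40 µM arrays lay on either side of control. Gstm1, a glutathione transferase, was at 13.70 and 13.85 in control and 13.17 and 13.10 at 2.5 µM. Sqstm1, the autophagy receptor p62, was at 16.21 and 16.21 in control and 16.14 and 15.97 at 2.5 µM. In both, all 2.5 µM values lay below those of control. Sod2, the mitochondrial superoxide dismutase, was at 10.33 and 10.25 in control and 10.10 and 9.75 at 2.5 µM. Bach1 was also lower, at 11.14 and 10.90 in control and 10.29 and 10.33 at 2.5 µM (-0.72, SE 0.19), and was below control at 40 µM too, with 10.37 and 10.47.

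Most other genes named from this system went the other way or overlapped. Txnrd1, thioredoxin reductase, was higher on both 2.5 µM arrays, at 16.79 and 16.62 against 16.47 and 16.53. Mgst1, a membrane glutathione transferase, was at 9.12 and 9.02 in control and 10.68 and 9.36 at 2.5 µM, a difference carried mostly by replicate 1. Only that array lay above background. Me1, which supplies NADPH, was instead slightly lower on both 2.5 µM arrays, at 11.84 and 11.94 in control and 11.78 and 11.73 at 2.5 µM. Nqo1, a quinone reductase and a common NRF2 readout, was at 6.26 and 6.28 in control and 6.26 and 5.46 at 2.5 µM, far below background in both groups. The metallothioneins Mt1 and Mt2 were not apart. Mt1 was at 14.99 and 14.96 in control and 16.14 and 14.97 at 2.5 µM. Mt2 was at 13.31 and 13.31 in control and 14.95 and 13.18 at 2.5 µM.

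**Figure D3:**
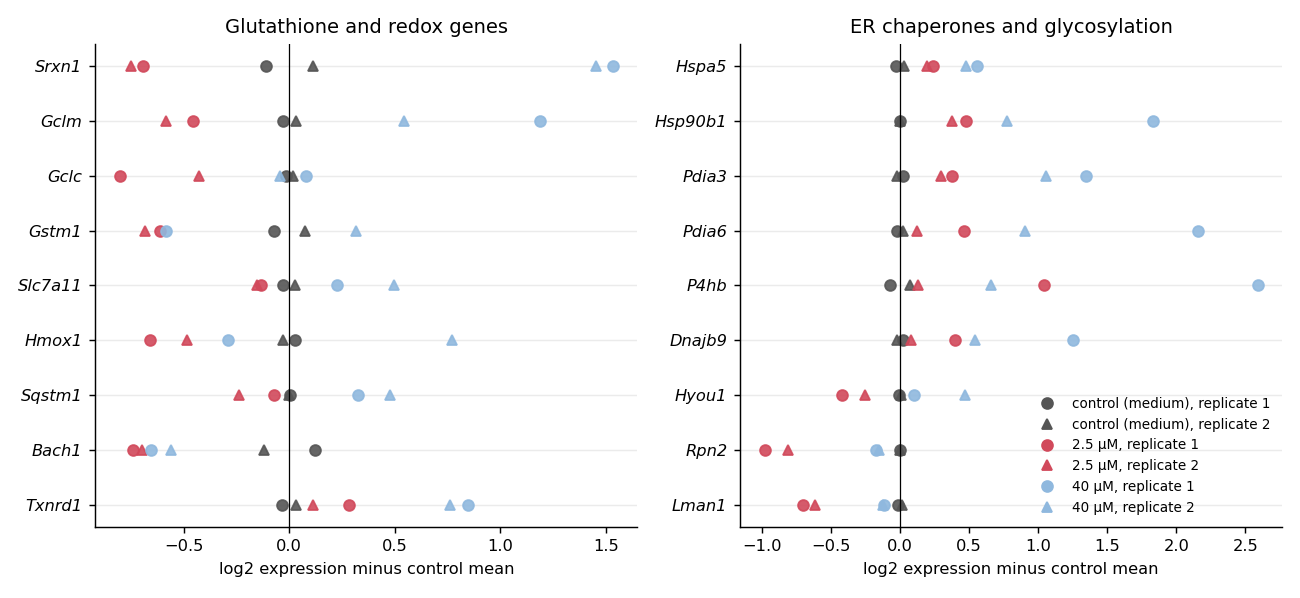
Log2 expression minus the control mean (horizontal axis) on each array for 9 redox genes (left) and 9 genes of the ER (right), with circles for replicate 1, triangles for replicate 2, grey for control, red for 2.5 µM and blue for 40 µM. From Srxn1 to Bach1 the red points lie below control, as they do for Hyou1, Rpn2 and Lman1, while they lie above control for Txnrd1 and for the chaperones Hspa5 to Dnajb9.

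Proteins bound for the cell surface or for melanosomes are folded and glycosylated in the endoplasmic reticulum (ER) and leave it in coated vesicles. ER chaperones are known targets of the unfolded protein response, which acts through the ER stress response element. Of 13 chaperone and oxidative folding genes above background, 6 were apart and higher and 1 lower at 2.5 µM, against 34.7% and 24.1% of all genes, with list medians of 0.24 on replicate 1 and 0.08 on replicate 2. The differences were small. Hspa5, the chief ER chaperone BiP, was at 18.92 and 18.98 in control, 19.19 and 19.15 at 2.5 µM and 19.51 and 19.42 at 40 µM. Hsp90b1, the ER member of the HSP90 family, was at 16.23 and 16.23 in control, 16.70 and 16.61 at 2.5 µM and 18.06 and 17.00 at 40 µM. In both genes all 3 groups were apart, in the order of dose.

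The promoters of Hspa5, Hsp90b1 and Pdia6 are shown because these are the chaperones higher at 2.5 µM whose windows hold the ER stress response element, read as CCAAT, 9 bases of any kind and CCACG. Each is the 250 bases before the start of the gene in RefSeq (GRCm38.p6): chr2:34771840-34772089, plus strand, for Hspa5, chr10:86705445-86705694, minus strand, for Hsp90b1 and chr12:17266339-17266588, plus strand, for Pdia6. Capitals mark the matches, whose first bases lie at -65 from the start in Hspa5, at -212 and -107 in Hsp90b1 and at -98 in Pdia6. The second match of Hsp90b1 reads on the opposite strand.
Hspa5: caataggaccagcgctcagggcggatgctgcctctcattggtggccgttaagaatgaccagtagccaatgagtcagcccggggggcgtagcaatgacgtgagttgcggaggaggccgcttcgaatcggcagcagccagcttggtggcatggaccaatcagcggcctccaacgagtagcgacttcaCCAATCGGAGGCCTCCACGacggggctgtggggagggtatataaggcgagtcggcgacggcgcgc
Hsp90b1: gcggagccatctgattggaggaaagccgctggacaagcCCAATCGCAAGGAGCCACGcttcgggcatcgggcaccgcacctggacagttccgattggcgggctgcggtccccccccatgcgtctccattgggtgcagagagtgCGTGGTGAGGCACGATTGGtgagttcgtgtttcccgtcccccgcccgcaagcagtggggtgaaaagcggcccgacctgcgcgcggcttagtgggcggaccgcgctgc
Pdia6: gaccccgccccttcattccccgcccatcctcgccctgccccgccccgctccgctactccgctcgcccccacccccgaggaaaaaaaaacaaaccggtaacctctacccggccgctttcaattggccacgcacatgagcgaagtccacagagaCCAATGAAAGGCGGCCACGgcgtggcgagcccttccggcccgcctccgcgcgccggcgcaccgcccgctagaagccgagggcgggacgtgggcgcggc
Only 37 of 32851 windows (0.113%), those of the listed genes included, hold this element on either strand. Of 18 listed chaperone genes with a window, 9 hold it in any of their windows, so this share counts genes and not windows. Of the 6 that were higher, 3 hold it, the same share as in the whole list.

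Pdia3, a disulfide isomerase for glycoproteins, was at 15.13 and 15.08 in control and 15.48 and 15.40 at 2.5 µM (0.34, SE 0.17; limma, adjusted p = 0.561). Pdia6 was at 13.40 and 13.44 in control and 13.88 and 13.54 at 2.5 µM. P4hb, another disulfide isomerase, was at 12.50 and 12.64 in control and 13.61 and 12.70 at 2.5 µM. Dnajb9, a BiP cofactor, was at 10.32 and 10.28 in control and 10.70 and 10.38 at 2.5 µM. For P4hb and Dnajb9 replicate 2 lay only just above control. Hyou1, a further ER chaperone, was lower at 2.5 µM, at 15.93 and 15.95 in control and 15.52 and 15.69 at 2.5 µM.

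N-glycans are attached by the oligosaccharyltransferase. Its subunit Rpn2 was among the lower genes with the widest gaps, at 14.11 and 14.11 in control, 13.13 and 13.30 at 2.5 µM and 13.93 and 13.95 at 40 µM. The 2.5 µM values lay below both other groups (-0.89, SE 0.16; limma, adjusted p = 0.479). The other subunits differed in direction. A list of them, chosen after their values were seen, had 11 members above background, 4 higher and 2 lower. Stt3a, a catalytic subunit, was lower too, at 18.25 and 18.25 in control and 18.09 and 18.09 at 2.5 µM. Krtcap2 was higher, at 15.23 and 15.32 in control and 16.66 and 15.67 at 2.5 µM. Ddost was at 12.09 and 12.05 in control and 12.96 and 12.27 at 2.5 µM. Tusc3 was at 10.16 and 9.97 in control and 10.66 and 10.51 at 2.5 µM.

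Vesicle coats and cargo receptors between the ER and the Golgi also lay mostly higher. This list too was chosen after its values were seen, so its count describes it and supports nothing. Of 29 members above background 20 were apart and higher and 5 lower, with medians of 0.41 and 0.29 on the 2 replicates. Mia3, which loads bulky cargo such as collagen, was at 12.20 and 12.22 in control and 12.94 and 12.78 at 2.5 µM. Rab2a, a GTPase of this step, was at 13.17 and 13.05 in control and 13.82 and 13.68 at 2.5 µM. The coat subunit Copa was at 14.08 and 14.12 in control and 14.64 and 14.54 at 2.5 µM. The receptor Ergic3 was at 10.43 and 10.48 in control and 11.40 and 10.93 at 2.5 µM. In Mia3, Rab2a and Copa the replicates lay nearer to each other than to control.

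Lman1, the lectin that carries glycoproteins out of the ER, went against its list. It was at 13.53 and 13.57 in control, 12.85 and 12.93 at 2.5 µM and 13.44 and 13.43 at 40 µM, a difference of -0.66 (SE 0.16; limma, adjusted p = 0.479). As with Rpn2, both 40 µM arrays were close to control. Lman2, a related lectin, was at 10.81 and 10.76 in control and 10.47 and 9.97 at 2.5 µM.

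Ddrgk1, an ER adaptor for the ubiquitin-like protein UFM1, was among the higher genes with the widest gaps, at 10.26 and 10.13 in control, 11.82 and 11.10 at 2.5 µM and 12.02 and 10.73 at 40 µM. In a list of ER-phagy receptors and UFM1 enzymes, made after values were seen, 8 of 11 were higher and 0 lower. Retreg1, a receptor for the degradation of ER sheets, was at 9.22 and 9.46 in control, below background, and 10.22 and 10.42 at 2.5 µM. Its relative Retreg3 was at 10.37 and 10.32 in control and 10.85 and 10.98 at 2.5 µM. Both receptors were higher on both arrays. Atl3, which fuses ER tubules and is also an ER-phagy receptor, was at 12.10 and 11.97 in control and 12.67 and 12.59 at 2.5 µM. Rtn4, which shapes them, was at 12.42 and 12.52 in control and 12.98 and 13.17 at 2.5 µM. Atl3 overlapped control at 40 µM, with 12.06 and 11.95.

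Cells short of oxygen, or with the factor HIF stabilised by other means, raise genes of glucose uptake, mitophagy and collagen processing. Of 14 hypoxia targets above background, 9 were apart and higher at 2.5 µM and 1 lower, against 34.7% and 24.1% of all genes. Over these members the median was 0.35 on replicate 1 and 0.34 on replicate 2. Bnip3 and Bnip3l passed the background through their 2.5 µM values alone. Over all 21 measured members the median was 0.20, with 0.11 on replicate 1 and 0.30 on replicate 2. With a gap of at least 0.25 there were 6 higher members and 1 lower.

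Plod2, a collagen lysyl hydroxylase, was at 10.43 and 10.69 in control and 11.13 and 11.51 at 2.5 µM (1.69-fold; difference 0.76, SE 0.23; limma, adjusted p = 0.479). Bnip3l, a mitophagy receptor, was at 9.93 and 9.81 in control and 10.88 and 10.33 at 2.5 µM. Its relative Bnip3 was at 9.65 and 9.65 in control and 10.37 and 9.94 at 2.5 µM. In these 3 genes neither 2.5 µM array reached down to control. Ndrg1 was at 11.79 and 11.72 in control and 12.32 and 12.16 at 2.5 µM. Egln1, the hydroxylase that marks HIF for degradation, was at 11.83 and 11.63 in control and 12.43 and 12.14 at 2.5 µM. Both were higher on either array. Slc2a1, the glucose transporter GLUT1, was at 13.83 and 13.79 in control, 14.24 and 14.11 at 2.5 µM and 14.52 and 14.56 at 40 µM. Hif1a itself was at 14.32 and 14.38 in control and 14.61 and 14.82 at 2.5 µM. The exception was Vegfa, the vascular growth factor, at 13.36 and 13.48 in control and 12.91 and 13.07 at 2.5 µM.

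Glycolytic enzymes followed less clearly, with 6 of 14 apart and higher and 2 lower. Pfkp, a phosphofructokinase, was at 11.47 and 11.34 in control and higher by 0.47 (SE 0.25) at 2.5 µM. Pkm, pyruvate kinase, was at 17.86 and 17.86 in control and 18.02 and 18.26 at 2.5 µM. Ldha, lactate dehydrogenase, was at 16.94 and 16.94 in control and 17.18 and 17.08 at 2.5 µM. Pfkfb3, which makes the activator of phosphofructokinase, was lower, at 11.22 and 11.29 in control and 10.89 and 11.12 at 2.5 µM. Of all genes above background 34.7% were apart and higher and 24.1% apart and lower.

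Melanocytes make melanin in melanosomes with the enzymes Tyr, Tyrp1 and Dct on a matrix of Pmel, under the lineage factor Mitf. Of 10 melanin synthesis and matrix genes above background, 6 were apart and higher at 2.5 µM and 0 lower, against 34.7% and 24.1% of all genes. With a gap of at least 0.25 there were 3 higher and 0 lower, and the medians were 0.16 and 0.11. The enzymes differed little from control. Tyr was not apart, at 14.72 and 14.69 in control and 14.56 and 14.90 at 2.5 µM, a difference of 0.02 with a 95% confidence interval from -0.41 to 0.46. After quantile normalization the difference of Tyr was -0.0014. Tyrp1 was at 18.97 and 18.92 in control and 19.05 and 19.02 at 2.5 µM. Dct was at 18.97 and 18.97 in control and 19.02 and 19.06 at 2.5 µM. Tyrp1 and Dct each had a difference of 0 after quantile normalization. That method gives genes of equal rank the same value on every array, so a 0 there is no measure of their signal. Pmel was at 17.74 and 17.73 in control and 17.96 and 17.78 at 2.5 µM. Tyrp1 and Dct lie near the top of the scale, whose maxima were 19.7 to 19.9, and whether their features were saturated was not tested.

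Some other pigment genes differed by more than the enzymes. Slc24a5, a cation exchanger of the melanosome pathway, was at 14.81 and 14.90 in control and 15.62 and 15.37 at 2.5 µM (0.64, SE 0.32; limma, adjusted p = 0.558). Slc45a2, a melanosomal transporter that supports pigmentation, was at 15.55 and 15.55 in control and 16.25 and 15.93 at 2.5 µM. Rab38, a GTPase that brings enzymes to melanosomes, was at 15.05 and 15.04 in control, 15.47 and 15.40 at 2.5 µM and 15.79 and 15.45 at 40 µM. Mlana was not apart, at 15.16 and 15.23 in control and 15.64 and 15.03 at 2.5 µM.

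Among 11 lineage factors and receptors above background 6 were higher and 4 lower, against 34.7% and 24.1% of all genes. Mitf was slightly lower, at 16.03 and 15.95 in control, 15.83 and 15.88 at 2.5 µM and 15.10 and 15.51 at 40 µM. Tfap2a, a factor that acts with it, was at 13.71 and 13.55 in control and 13.43 and 12.99 at 2.5 µM. Tfe3, a relative of Mitf, was at 10.55 and 10.53 in control and 10.19 and 10.42 at 2.5 µM. These 3 factors were lower, the next genes higher. Pax3 was at 14.09 and 13.96 in control and 14.43 and 14.34 at 2.5 µM. Sox10 was at 12.71 and 12.67 in control and 12.79 and 12.82 at 2.5 µM. Mc1r, the receptor for melanocortin, was at 14.50 and 14.56 in control and 14.96 and 14.73 at 2.5 µM. All 3 were higher by small amounts. The channel Trpm1 was at 13.47 and 13.47 in control and 14.11 and 13.69 at 2.5 µM. Trpm1 was above control at 2.5 µM and below it at 40 µM, with 13.22 and 12.96.

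Melanosomes are carried along actin by myosin Va bound through Mlph. In the transport and biogenesis list 4 of 12 were lower and 1 higher, the lower share being near the 24.1% of all genes. Myo5a was at 15.08 and 15.10 in control and 14.35 and 14.89 at 2.5 µM. Ap3b1, an adaptor subunit that sorts melanosome cargo, was at 13.52 and 13.49 in control and 13.20 and 13.27 at 2.5 µM. Mlph was at 13.29 and 13.19 in control and 13.16 and 13.03 at 2.5 µM. Bloc1s2 was the 1 higher member, at 11.04 and 11.06 in control and 11.47 and 11.20 at 2.5 µM.

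Cholesterol is made from acetyl-CoA through mevalonate and squalene, under the factor Srebf2. Sqle, squalene epoxidase, was higher on both arrays at 2.5 µM, at 8.72 and 8.86 in control, 9.80 and 9.53 at 2.5 µM and 10.15 and 9.84 at 40 µM, but both group means of the comparison lay below background, so it is outside the rule. Of the 5 enzymes from squalene to cholesterol above background 3 were higher and 1 lower, with medians of 0.14 and 0.24. The shares of all genes above background were 34.7% higher and 24.1% lower. Cyp51 was at 12.04 and 12.09 in control and 12.21 and 12.31 at 2.5 µM. Sc5d was at 11.24 and 11.47 in control and 11.75 and 11.65 at 2.5 µM. Nsdhl was at 10.04 and 10.01 in control and 10.48 and 10.11 at 2.5 µM. In these 3 both 2.5 µM arrays lay above control. Dhcr7, the last enzyme of the pathway, was lower, at 10.40 and 10.49 in control and 10.17 and 10.04 at 2.5 µM. The mevalonate arm had 4 members above background, 1 higher and 2 lower, with a median of -0.096. Over all 11 measured members its median had the other sign, at 0.29. Hmgcs1, which makes the precursor of mevalonate, was lower, at 11.81 and 11.81 in control and 11.64 and 11.61 at 2.5 µM. Srebf2 was also lower, at 14.83 and 14.83 in control and 14.49 and 14.36 at 2.5 µM. Insig1, which holds SREBP in the ER, was higher, at 11.09 and 11.22 in control and 11.54 and 11.34 at 2.5 µM. These directions do not share a sign across the pathway.

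Fatty acid synthesis and desaturation had 6 of 11 members lower and 2 higher, against 24.1% and 34.7% of all genes above background. The list medians were -0.05 and -0.13. Fasn, fatty acid synthase, was at 10.68 and 10.55 in control and 10.28 and 10.14 at 2.5 µM. The desaturase Scd1 was at 13.80 and 13.74 in control and 13.51 and 13.53 at 2.5 µM. Fads1, another desaturase, was at 13.27 and 13.27 in control and 13.13 and 12.98 at 2.5 µM. All 3 lay below control on both 2.5 µM arrays. At 40 µM Scd1 lay above control, at 13.97 and 14.61. Lpcat3, which puts polyunsaturated chains into phospholipids and is a target of the sterol receptor LXR, was 1.56-fold higher, at 14.32 and 14.22 in control, 15.04 and 14.78 at 2.5 µM and 15.35 and 15.16 at 40 µM (limma at 2.5 µM, adjusted p = 0.479). Abca1, the sterol exporter and another LXR target, was at 8.11 and 7.93 in control, 8.24 and 8.03 at 2.5 µM and 9.64 and 9.53 at 40 µM, not apart at 2.5 µM and below background. Npc2 and Npc1, which hand cholesterol out of lysosomes, went opposite ways. Npc2 was at 10.43 and 10.50 in control and 10.91 and 10.76 at 2.5 µM. Npc1 was at 11.86 and 11.79 in control and 11.52 and 11.42 at 2.5 µM.

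Stress transcription factors differed in size and direction. Atf3, an early stress factor, was at 11.10 and 11.22 in control, 11.81 and 11.86 at 2.5 µM and 11.37 and 11.69 at 40 µM, 1.60-fold higher at 2.5 µM (0.68, SE 0.20; limma, adjusted p = 0.479). Atf4, the factor of the integrated stress response, was at 16.65 and 16.56 in control and 16.67 and 16.68 at 2.5 µM. Ddit3, its target CHOP, was at 14.51 and 14.49 in control and 14.43 and 14.30 at 2.5 µM, so neither shared the size of Atf3. Atf6, an ER stress sensor, was at 15.20 and 15.25 in control and 15.48 and 15.67 at 2.5 µM. Asns, asparagine synthetase, was at 16.47 and 16.52 in control and 17.00 and 16.69 at 2.5 µM. The ATF4 and stress list had 6 of 14 higher and 4 lower, near the shares of all genes.

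Csf1, the macrophage growth factor, was higher, at 10.50 and 10.51 in control, 11.29 and 11.09 at 2.5 µM and 11.23 and 11.12 at 40 µM (1.61-fold). Ccng1, a p53 target, was at 14.48 and 14.26 in control and 15.05 and 14.94 at 2.5 µM. Cdkn1a, the p53 target p21, was not apart, at 14.32 and 14.30 in control and 14.60 and 14.08 at 2.5 µM. Jund was lower, at 10.83 and 10.90 in control and 10.41 and 10.42 at 2.5 µM, and so was Klf6, at 12.27 and 12.28 in control and 12.04 and 11.84 at 2.5 µM. Both belong to the list of immediate early and MAPK feedback genes. In it 4 of 9 were lower and 1 higher, against 24.1% and 34.7% of all genes above background. Slc11a2, an iron importer, was at 11.03 and 10.92 in control and 10.05 and 10.24 at 2.5 µM, 1.78-fold higher in control.

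Several genes of the cell cortex were lower. A list of actin, tubulin and cortical genes, chosen after values were seen so that its count supports nothing, had 10 of 15 lower and 3 higher, with medians of -0.15 and -0.25. Msn, moesin, which ties actin to the membrane, was at 14.54 and 14.51 in control and 13.52 and 13.94 at 2.5 µM. Zyx, zyxin of focal adhesions, was at 12.59 and 12.38 in control and 12.02 and 11.69 at 2.5 µM. Lpp, its relative, was at 11.26 and 11.47 in control and 10.76 and 10.73 at 2.5 µM. None of these overlapped control. Parva, which binds integrin-linked kinase, was at 11.32 and 11.36 in control and 10.85 and 10.84 at 2.5 µM. Tubb3 was at 10.97 and 10.81 in control and 10.21 and 10.24 at 2.5 µM. Actb, often used as a reference gene, was also slightly lower, at 19.37 and 19.42 in control and 19.25 and 19.21 at 2.5 µM, while Gapdh was not apart, at 18.40 and 18.44 in control and 18.57 and 18.20 at 2.5 µM.

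In the YAP-TEAD list 5 of 10 were lower and 2 higher, against 24.1% and 34.7% of all genes above background. Amotl1, which binds YAP, was at 12.18 and 12.25 in control and 11.53 and 11.72 at 2.5 µM. The kinase Lats2 was at 12.35 and 12.61 in control and 11.99 and 11.80 at 2.5 µM, while Yap1 was higher, at 11.39 and 11.42 in control and 11.59 and 11.96 at 2.5 µM. Ccn1, a secreted YAP target, was at 13.46 and 13.48 in control, 13.35 and 13.19 at 2.5 µM and 14.27 and 14.59 at 40 µM, below control at the lower dose and above it at the higher. Of the 8 extracellular matrix and integrin genes above background 2 were lower, 0 higher and 6 not apart, close to the 24.1% of all genes that were lower. The lower genes were Lamc1 and Itgav. Lamc1, a laminin chain, was at 11.76 and 11.82 in control and 11.22 and 11.53 at 2.5 µM. Itgav, an integrin subunit, was at 11.34 and 11.23 in control and 10.77 and 10.95 at 2.5 µM. Fn1, fibronectin, from the mesenchymal list, was at 10.80 and 10.67 in control and 10.06 and 10.42 at 2.5 µM.

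Replication-dependent histones, whose mRNAs are made in S phase and end without a poly-A tail, lay mostly lower. Of 17 above background 10 were apart and lower and 1 higher, against 24.1% and 34.7% of all genes. Of the 10 lower histones 8 had a gap of at least 0.25. The median was -0.32 on replicate 1 and -0.40 on replicate 2. A wider list of histone cluster genes, chosen after values were seen, had 27 of 42 lower and 3 higher. Such genes are near-copies of each other and may share probes, as H3c14 and H3c15 do in having identical values, so they are not separate measurements.

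H2bc11 was at 13.49 and 13.32 in control, 12.49 and 12.56 at 2.5 µM and 11.58 and 13.85 at 40 µM. H2bc13 was at 13.70 and 13.58 in control and 12.80 and 12.96 at 2.5 µM. H2bc7 was at 12.72 and 12.67 in control and 11.85 and 12.16 at 2.5 µM. H3c3 was at 14.93 and 15.06 in control and 14.45 and 14.43 at 2.5 µM. The lower genes were chiefly of the H2A, H2B and H3 families. At 40 µM the 2 replicates of the wider list had medians of -1.11 and 0.29, and replicate 1 was the array with low control features. On that array the histones lay lowest of all 6 arrays, while at 2.5 µM both replicates were alike.

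Other proliferation genes did not follow the histones. Of 15 DNA replication genes above background 9 were higher and 2 lower, against 34.7% and 24.1% of all genes. With a gap of at least 0.25 there were 2 higher and 1 lower. The medians on replicates 1 and 2 were 0.29 and 0.13, and over all 30 measured members 0.27 and 0.02. Prim1, the primase subunit, was at 10.80 and 10.99 in control and 12.23 and 11.50 at 2.5 µM. Rfc4, of the clamp loader, was at 9.71 and 9.67 in control, below background, and 10.43 and 10.10 at 2.5 µM. E2f1, the factor that drives such genes, was lower, at 10.11 and 10.27 in control and 9.81 and 9.71 at 2.5 µM, the latter both below background. Mitotic genes had 12 of 27 higher and 5 lower, to be read against the same shares. Kif23, a kinesin of cytokinesis, was at 11.37 and 11.19 in control and 11.97 and 11.80 at 2.5 µM. Aurkb, a kinase that acts with it, was at 11.78 and 11.73 in control and 12.50 and 12.18 at 2.5 µM. Aurka, the kinase of the spindle poles, was lower, at 11.78 and 11.73 in control and 11.36 and 11.25 at 2.5 µM. Mki67 was at 15.99 and 15.96 in control and 15.87 and 15.88 at 2.5 µM, a small difference.

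Myc was lower, at 14.08 and 14.09 in control, 13.73 and 13.74 at 2.5 µM and 13.88 and 14.20 at 40 µM. Cdk6, a G1 kinase, was at 10.96 and 10.86 in control and 10.29 and 10.36 at 2.5 µM (-0.58, SE 0.20; limma, adjusted p = 0.483). The list of MYC and nucleolar ribosome biogenesis genes nevertheless had 8 of 16 higher and 4 lower. Among splicing genes 10 of 33 were higher and 11 lower. Both counts are to be read against 34.7% higher and 24.1% lower among all genes above background. Snrpb, a core spliceosome protein, was at 11.81 and 11.95 in control and 11.34 and 11.15 at 2.5 µM. Hnrnpc was at 13.04 and 13.03 in control and 13.65 and 13.36 at 2.5 µM.

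**Figure D4:**
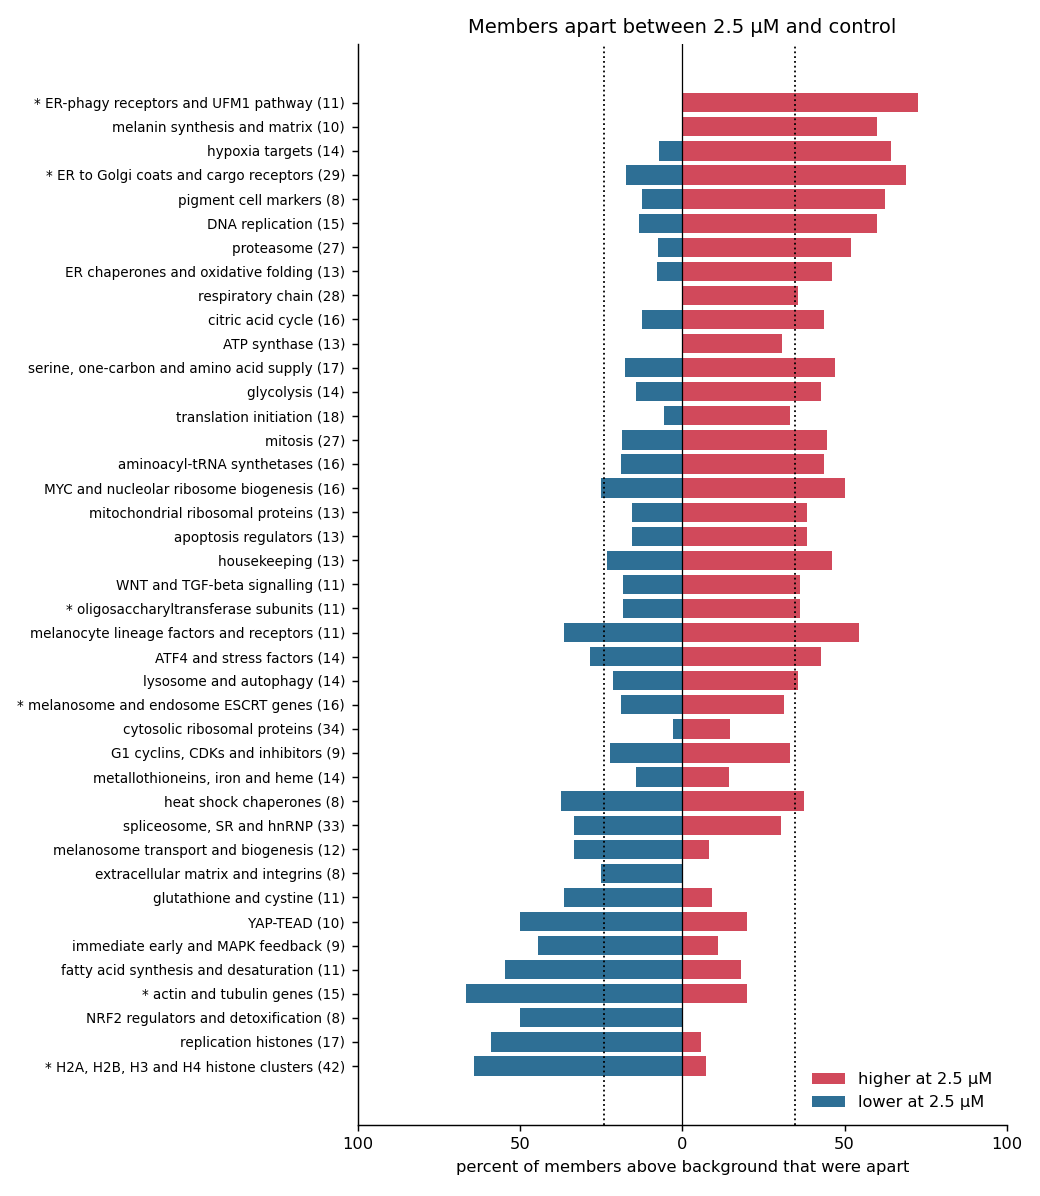
For each list with at least 8 members above background (number in brackets), the percentage of those members apart and higher (red, to the right) or apart and lower (blue, to the left) at 2.5 µM. Dotted lines are the shares of all genes above background, 34.7% and 24.1%, and an asterisk marks lists chosen after values were seen. The lists without an asterisk were chosen with earlier results of these data known. The histone, actin and NRF2 lists lie at the lower end and the ER-phagy, melanin and hypoxia lists at the upper end.

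Several lists were high on 2.5 µM replicate 1 alone. Respiratory chain subunits had a median of 0.78 on replicate 1 and -0.11 on replicate 2, ATP synthase subunits 0.94 and -0.32, cytosolic ribosomal proteins 0.57 and -0.25, and proteasome subunits 0.65 and 0.03. At 40 µM the first 3 of these lists had 1.28 and -0.04, 1.34 and 0.04, and 0.78 and -0.17. For the proteasome 40 µM replicate 1 had 1.26, with replicate 2 near 0. The high array was each time the one with low control features. Their mean differences therefore rest on a single array per dose.

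Respiratory chain genes had 10 of 28 higher (35.7%) and 0 lower, and ATP synthase 4 of 13 higher (30.8%) and 0 lower. Ribosomal proteins had 5 of 34 higher (14.7%) and 1 lower. All genes above background had 34.7% higher and 24.1% lower. The higher shares of these lists were thus close to the general share or below it. Atp5o, a stalk subunit of ATP synthase, was at 10.53 and 10.65 in control, 12.10 and 10.98 at 2.5 µM and 12.88 and 10.88 at 40 µM. Uqcrb, of complex III, was at 13.47 and 13.35 in control, 15.03 and 13.60 at 2.5 µM and 16.22 and 13.27 at 40 µM. Rpl6 was at 14.11 and 14.11 in control, 15.86 and 14.54 at 2.5 µM and 17.05 and 14.31 at 40 µM. In each, replicate 1 of a dose was far above replicate 2. Ribosomal proteins have many near-identical pseudogenes, so their values are uncertain. Rpl37 was the 1 ribosomal protein that was lower, at 15.93 and 15.90 in control and 15.56 and 15.11 at 2.5 µM.

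The proteasome had 14 of 27 higher and 2 lower, against 34.7% and 24.1% of all genes above background, but its median on replicate 2 was close to control. The counts that follow are to be read against the same shares. Psmd2 was at 12.93 and 12.93 in control and 13.58 and 13.21 at 2.5 µM. Psma4 was at 12.39 and 12.47 in control and 13.78 and 12.88 at 2.5 µM. The chaperonin TRiC, which folds actin and tubulin, had 5 of 6 higher and 0 lower, with medians of 0.60 and 0.22. Tcp1 was at 11.24 and 11.39 in control and 12.34 and 11.80 at 2.5 µM. Citric acid cycle genes had 7 of 16 higher, with Dld, shared by its dehydrogenase complexes, at 11.77 and 11.90 in control and 13.02 and 12.34 at 2.5 µM.

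**Figure D5:**
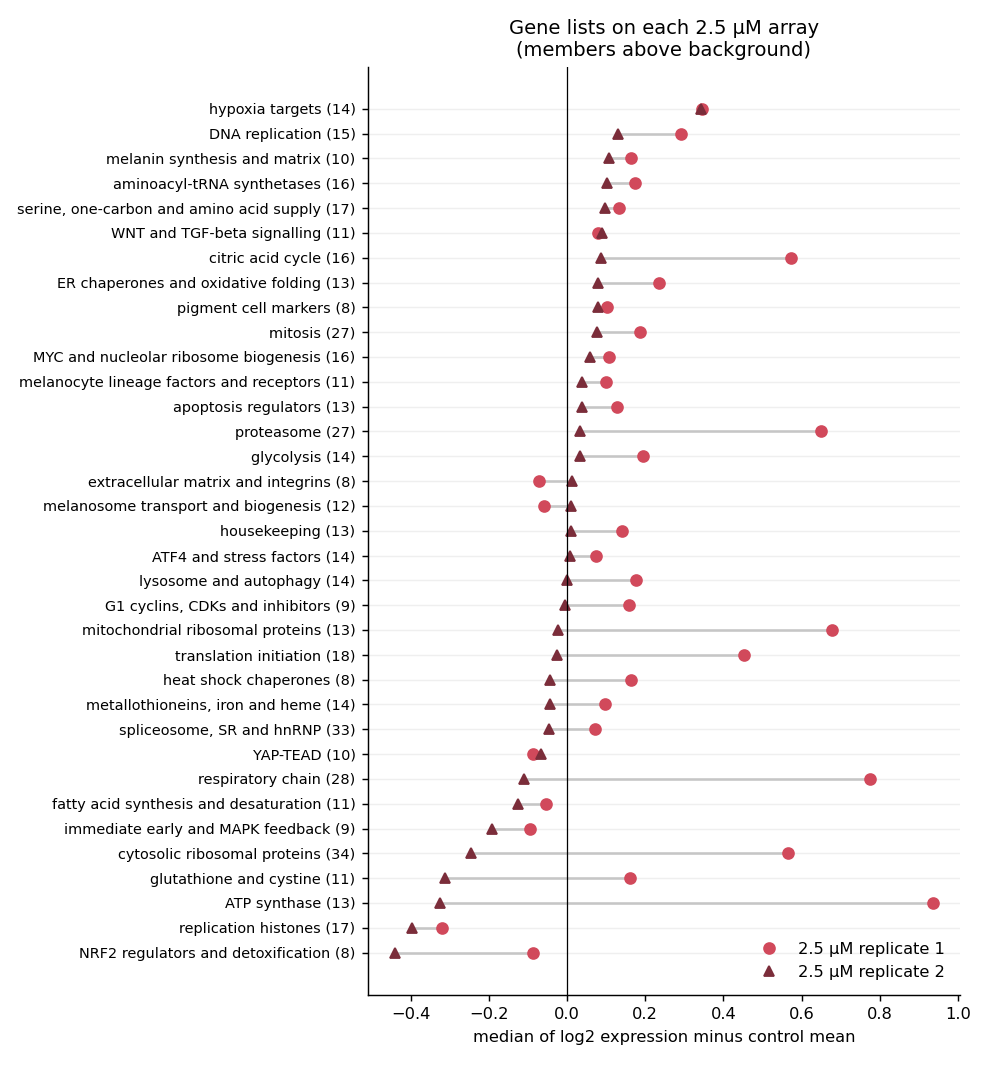
Median difference from the control mean over the members above background (number in brackets), in log2 units, on 2.5 µM replicate 1 (circles) and replicate 2 (triangles), for lists with at least 8 such members, ordered by replicate 2. Hypoxia targets and replication histones have nearly equal values on both arrays, while ATP synthase, respiratory chain and ribosomal protein genes are high on replicate 1 and below 0 on replicate 2.

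Counts of further lists follow, to be read against the 34.7% higher and 24.1% lower among all genes above background. Aminoacyl-tRNA synthetases had 7 of 16 higher and 3 lower, amino acid supply 8 of 17 and 3, translation initiation 6 of 18 and 1, mitochondrial ribosomal proteins 5 of 13 and 2, heat shock chaperones 3 of 8 and 3, lysosome and autophagy 5 of 14 and 3, apoptosis regulators 5 of 13 and 2, and WNT and TGF-beta signalling 4 of 11 and 2. A list of melanosome and endosome ESCRT genes, chosen after values were seen, had 5 of 16 higher and 3 lower. Of 21 interferon response genes only 1 was above background, and it was not apart.

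Markers were set against the labelled cell type. Of 10 pigment cell markers measured, 8 were above background. Of the fibroblast, keratinocyte, leukocyte and endothelium markers, 5, 5, 4 and 5 were measured and 0 lay above background.

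The doses were also compared directly. No gene passed between 40 µM and 2.5 µM over all genes (limma, smallest adjusted p = 0.132), and at an unadjusted p under 0.05 there were 456 genes higher and 639 lower at 40 µM. Here too 0 (0%) were called. Several genes named above had their 2.5 µM values outside the range spanned by control and 40 µM. Srxn1, Gclm, Slc7a11, Sqstm1, Scd1 and Ccn1 lay below both other groups at 2.5 µM, as did Rpn2 and Lman1. Akap7, Slc6a8, Mc1r, Trpm1 and Atl3 lay above both. These genes were picked after their values were seen, and the difference from 40 µM was 1.38 (SE 0.24) for Gclm, 0.77 (SE 0.23) for Scd1, 0.73 (SE 0.16) for Rpn2 and -0.81 (SE 0.21) for Trpm1 (limma, adjusted p = 0.854 for each).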

How the data were processed

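RNA of B16F10 cells was measured on single-colour Affymetrix mouse arrays, 2 per group. The authors used RMA and deposited log2 values. Per the submitters' processing notes, Transcriptome Analysis Console and Affymetrix Expression Console were used, with no versions given. RMA quantile-normalizes arrays, which is meant to remove differences in total signal. The deposited gene values still differed in spread between arrays, with interquartile ranges from 4.90 to 5.43. Values reached 19.9, above the 16 of a 16-bit scanner. The step behind this is not given in the sources used here, so folds are on the deposited scale. The labels disagree on the array type and on the amount of input RNA. Arrays give no read depth, and their number limits the precision.

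Of 28846 features 22206 were transcript clusters and 19572 of these had 1 gene symbol in the platform annotation. For the 55 genes with several clusters the one of highest mean was kept, leaving 19505 genes. limma 3.58.1 (R 4.3.3) was fitted to all 6 arrays with a trended prior and no covariates, with two-sided tests. Adjusted p-values (Benjamini-Hochberg, all genes) under 0.05 were called. It was tested on simulated data. Of 1048 genes on 52 lists 954 were measured, 23 of them through an older symbol.

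Named were the 14 genes per direction with the widest gaps, up to 5 genes apart per list, and 29 named in any case, of which 27 were measured. Other genes, and 6 further lists, were chosen after their values were seen. Members and lists were chosen with earlier results of these data known. Equal replicate numbers were not taken as pairs, since nothing in the labels says that they share a source. Deviations of same-numbered arrays correlated at -0.0045 between control and 2.5 µM, -0.012 between control and 40 µM and 0.386 between the doses. Alternatives covered the fit, the scaling, the background and each array left out.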

Additional observations from a re-analysis of the deposited data

How the results depend on the processing

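No gene passed against control (limma) under any alternative except 1. The replicate block gave 0 calls (smallest adjusted p = 0.400), and it changed no call between the doses, which also had 0. Without both arrays low in control features, an alternative added after seeing the data, 3991 genes passed against control and 2965 between the doses, with a spread that comes from the 2 control arrays and no others. The genes apart and above background numbered 261 higher and 246 lower with the 99th percentile of negative control features as background, 3251 and 2200 with their median, and 456 and 296 with a gap of at least 0.25. With 1 array left out there were 1717 to 2379 higher and 1229 to 1716 lower, where fewer arrays make being apart easier. Of the 52 lists 39 had a median above 0 over all measured members, and 23 to 41 with 1 array left out, the 23 without 2.5 µM replicate 1.

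After quantile normalization the difference turned to -0.0047 for Abca1, -0.0236 for Cdkn1a and -0.0014 for Tyr. The cause was not tested. It was 0 for Dct and Tyrp1, where the method gives genes of equal rank equal values. With 1 array left out the differences ranged from -0.2266 to 0.2918 for Cdkn1a, -0.217 to 0.1494 for Gapdh and -0.1648 to 0.4419 for Mlana. They ranged from -0.1341 to 1.6344 for Mt2 and from -0.145 to 0.1926 for Tyr. The other genes named kept their direction under the alternatives run for single genes, namely the replicate block, both scalings, the mean of probe sets and each array left out.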
